A study of Mus musculus with 2 samples.

Results

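The genes described here are the potassium channel genes of the mouse cochlea, taken as every gene whose symbol starts with Kcn and does not end in os or Rik. Of 33696 genes in the files, 97 were chosen by symbol. Of these, 68 had 50 or more unique molecular identifiers (UMIs, counted RNA molecules) over both libraries in nuclei with at least 500 genes and at most 5% mitochondrial UMIs, a count that 18705 of all genes reached. The 68 members were 29 voltage-gated pore subunits, 8 calcium- or sodium-activated channels, 8 inward rectifiers, 9 two-pore channels, 12 auxiliary or regulatory proteins and 2 non-coding genes. Kcnj15 and Kcnn4, with 52 UMIs each, and Kcne1, with 53, lay just inside the limit. Kcnj2 with 46, Kcne2 with 44 and Kcns1 with 36 lay just outside it. Kcnmb1, a beta subunit of the large-conductance calcium-activated channel, had 10 UMIs and was not a member.

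RNA of single nuclei was sequenced from tissue labelled as basement membranes of the cochlea, from mice at postnatal day 7 that had received tamoxifen at day 1. The library called Serpine2 cOE came from 20 pooled cochleae of mice with 1 Lgr5-EGFP-CreER allele, a tamoxifen-dependent Cre carried by the gene for a progenitor marker of supporting cells, and loxP alleles of Serpine2 on both chromosomes. The control library came from 19 pooled cochleae of mice with the same Serpine2 alleles and without the Cre allele. Each group is 1 library of pooled tissue, so no difference between them has a replicate check and no test is given. The Cre allele and the state of Serpine2 differ together and cannot be told apart, and the sources used here do not describe the Serpine2 construct or its 3′ end.

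Potassium channels let potassium ions leave or enter a cell and so set its resting voltage and the shape of its electrical responses. In the cochlea, potassium enters hair cells through the mechanically gated channels of the hair bundle and leaves through basolateral channels, supporting cells take it up, and the stria vascularis secretes it back into endolymph. Voltage-gated, calcium-activated, inwardly rectifying and two-pore families differ in what opens them, and auxiliary subunits change how a pore opens or where it is placed.

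The files held 40429121 UMIs in 12014 barcodes for the Serpine2 cOE library and 31158971 UMIs in 9820 barcodes for the control. After filters and doublet removal 9777 and 8250 nuclei were kept, and 19 barcodes were shared between libraries. Levels are UMIs summed over the nuclei of a cell class, scaled to the total UMIs of that class in the usual unit, CPM, given first for the Serpine2 cOE library and then for the control. Brackets hold exact Poisson 95% intervals, or exact conditional intervals for a ratio, and they cover counting error only. Serpine2 stood at 86.0 and 88.9 CPM over all nuclei (log2 ratio -0.05, -0.13 to 0.03) and at 249 (217 to 283) and 183 (150.0 to 222) CPM in supporting cell-like nuclei (log2 ratio 0.44, 0.10 to 0.79).

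Classes were named from marker genes, with all Kcn genes left out of the clustering. The labels name hair cells and supporting cells as the cell types. Hair cell-like nuclei were 4.88% and 4.47% of the 2 libraries, supporting cell-like nuclei 1.67% and 1.15%, Koelliker organ-like nuclei 12.5% and 6.08%, interdental-like nuclei 3.01% and 0.945% and mesenchymal-like nuclei 21.3% and 23.8%. The 14 hair cell markers summed to 6703 and 5433 CPM in hair cell-like nuclei, against 238 and 323 in supporting cell-like nuclei. Of 6 hair cell-like sub-clusters, 3 also carried at least 3 markers of a different cell class, and these are called mixed. They held 192 and 194 of 477 and 369 hair cell-like nuclei. Their share of UMIs was larger: they held 14667 of 24373 and 15061 of 20758 member UMIs of the class. Mixed sub-cluster 1 had a median of 21168.5 UMIs per nucleus, against 4548 in the outer hair cell-like sub-cluster. Class levels and ratios in hair cell-like nuclei therefore rest largely on mixed nuclei. Cluster 11, led by Actb and ribosomal protein genes, held 148 and 831 nuclei and stayed unnamed. No cluster was named for strial marginal cells, and their marker Bsnd had 3 UMIs in all.

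Member UMIs were unequal. The members held 227693 of 70287446 UMIs. Kcnb2, a delayed rectifier pore subunit, held 85161 of these (37.4%), Kcnq1ot1, the antisense RNA of the imprinted Kcnq1 locus, 22901 (10.1%), and Kcnh8, an ELK-type voltage-gated subunit, 15951 (7.01%). Long genes had more UMIs: across the 68 genes, which are not independent replicates, Spearman's rho of genomic span and UMIs was 0.64. The 24 members that span 100 kb or more had a median of 3027.5 UMIs, and the 44 shorter ones 165.5. Levels are therefore compared between classes for 1 gene at a time.

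**Figure D1:**
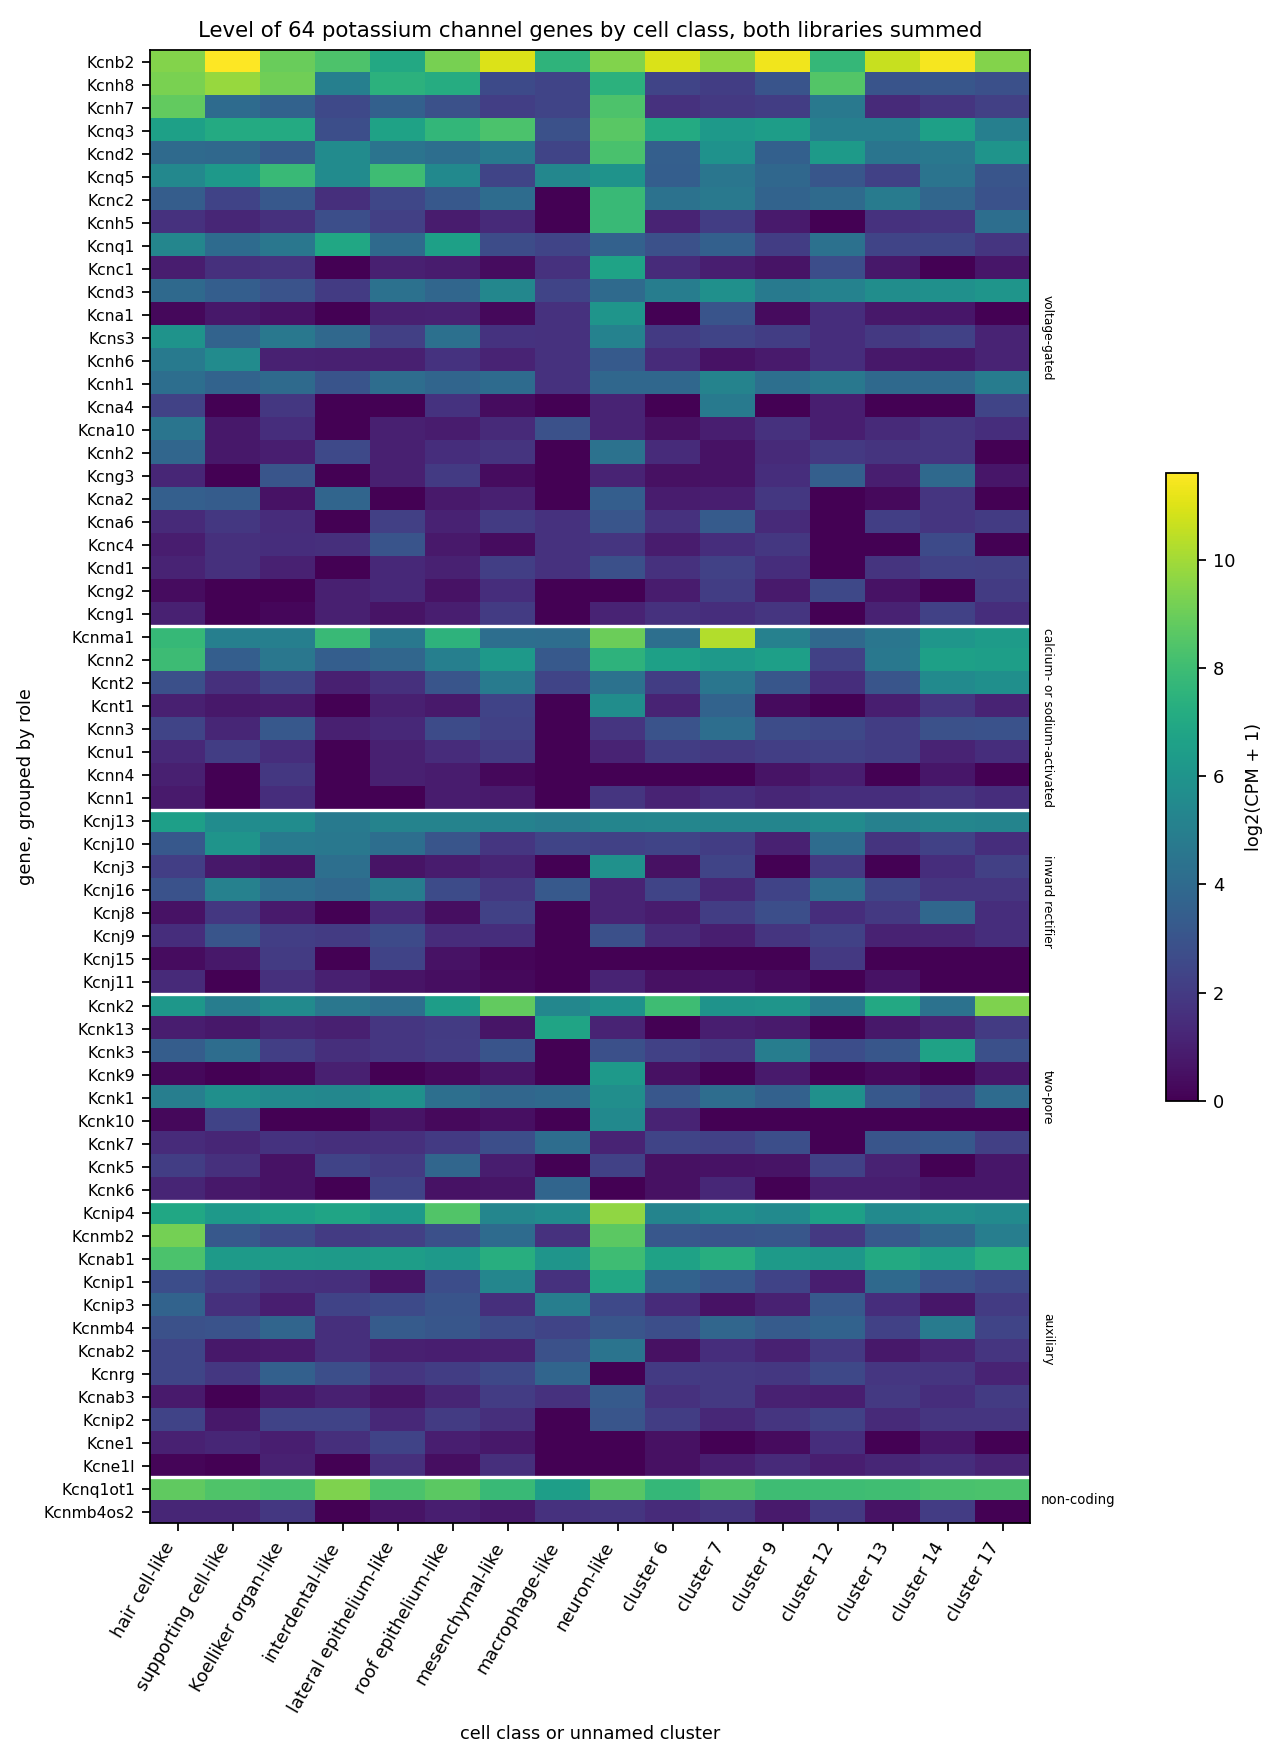
Level of 64 of the 68 members (vertical axis, grouped by role) in cell classes and clusters (horizontal axis) as log2(CPM + 1) of UMIs summed over both libraries. Kcnb2 and Kcnq1ot1 are high in most columns, and Kcnh7 and Kcnmb2 are high in the hair cell-like and neuron-like columns.

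The heat map of members by class shows that most members were spread over several classes. A member was said to have a leading class when the same class had the highest CPM in both libraries and stood 2-fold or more above the next class in both. The next class was taken at no less than the level of 3 UMIs, so the fold of a low gene can fall under 1. Classes and clusters with 50 or more nuclei in each library entered, which left out the neuron-like cluster. Of 68 members 7 (10.3%) had a leading class, against 7.45% of all genes with 50 or more UMIs, a share too near the background to be a result about the members. By role these were 1 of 29 voltage-gated subunits, 1 of 8 calcium- or sodium-activated channels, 1 of 8 inward rectifiers, 2 of 9 two-pore channels and 2 of 12 auxiliary genes. The same class was highest in both libraries, at any fold, for 37 members (54.4%) and for 48.1% of all genes. For the other 31 members the highest class was not the same in both. The median total was 325 UMIs for members and 1155 for all genes.

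Kcnmb2 and Kcnh7 were the 2 members that led in hair cell-like nuclei, and the 250 bases before their annotated starts are shown for that reason. The windows are from RefSeq on GRCm38.p6, read 5′ to 3′ on each gene's own strand, chr3:31902453-31902702 (plus strand) for Kcnmb2 and chr2:63184288-63184537 (minus strand) for Kcnh7. Capitals mark 2 of the motifs searched on both strands: the GC box GGGCGG, here read as CCGCCC, and AAATC, taken here as a form of the site recognised by the hair cell factor GFI1. Shorter forms of that site, such as AATC, were not searched.
Kcnmb2: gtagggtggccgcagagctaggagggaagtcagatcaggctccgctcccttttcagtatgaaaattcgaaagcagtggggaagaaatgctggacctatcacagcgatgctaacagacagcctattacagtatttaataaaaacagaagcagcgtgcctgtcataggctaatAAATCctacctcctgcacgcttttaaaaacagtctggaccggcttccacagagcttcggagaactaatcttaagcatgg
Kcnh7: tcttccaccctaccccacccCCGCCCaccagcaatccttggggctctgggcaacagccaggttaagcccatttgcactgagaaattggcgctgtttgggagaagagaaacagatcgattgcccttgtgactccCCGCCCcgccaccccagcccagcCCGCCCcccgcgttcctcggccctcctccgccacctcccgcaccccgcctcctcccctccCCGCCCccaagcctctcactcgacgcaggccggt
The Kcnmb2 window held AAATC 1 time and no GC box, and 47.2% of its bases were G or C. The Kcnh7 window held 4 GC boxes and no AAATC, and 67.6% of its bases were G or C. Neither held the E-box CAGNTG. Among 32851 windows of the same length, 32.7% held a GC box, 32.7% held AAATC and 44.8% held the E-box. Among the 70 windows of the 48 members in the table, the shares were 44.3%, 25.7% and 45.7%. These matches describe the letters only.

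Kcnh7, an ether-a-go-go-related pore subunit (chromosome 2, 62523758 to 63014910, minus strand, GRCm39), stood at 517 (498 to 537) and 384 (367 to 402) CPM in hair cell-like nuclei. The next class was at 21.4 in cluster 12 and 43.6 in cluster 11, for folds of 24.2 and 8.82. Neuron-like nuclei, left out of this comparison, were at 388 and 176 CPM. Hair cell markers summed to 334 and 1167 CPM in cluster 11, and their part in the smaller control fold was not tested by itself. Without mixed sub-clusters the hair cell-like level of Kcnh7 was 738 and 553 CPM. With clusters 8, 11 and 25 also left out, a setting added after the data were seen, its folds were 34.5 and 19.3.

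Kcnmb2, the beta subunit that makes the large-conductance calcium-activated channel inactivate (chromosome 3, 31956656 to 32254329, plus strand), stood at 642 (620.2 to 664) and 509 (489 to 530.2) CPM in hair cell-like nuclei. The next class was at 31.7 in cluster 17 and 73.0 in cluster 11, for folds of 20.3 and 6.98. The neuron-like nuclei, again left out, were at 515 and 188 CPM. Without mixed sub-clusters the hair cell-like level of Kcnmb2 was 855 and 683 CPM. With clusters 8, 11 and 25 also left out, its folds were 27.0 and 23.6. Both genes were thus high in the same class of both libraries.

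**Figure D2:**
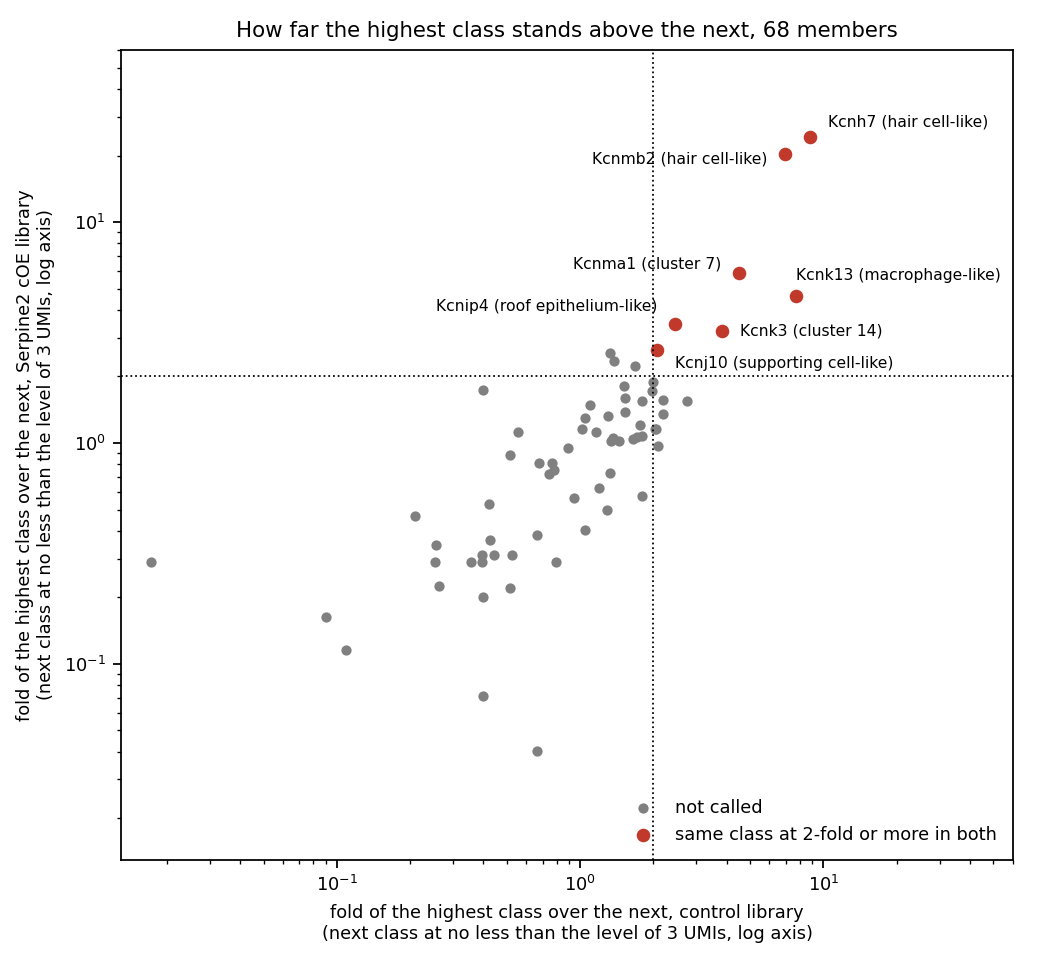
Fold of the highest over the next class for each member in the control (horizontal) and the Serpine2 cOE library (vertical), on log axes, with the next class at no less than the level of 3 UMIs. The neuron-like cluster is left out. The 7 named members with a leading class pass the 2-fold lines in both libraries, and Kcnh7 (24.2 and 8.82 in cOE and control) lies farthest out.

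In the scatter of folds the other 5 members with a leading class belonged to other classes. Kcnma1, the pore subunit of the large-conductance calcium-activated channel (chromosome 14, 23339499 to 24064559, minus strand), was highest in cluster 7, an unnamed cluster led by Runx2, Hhip and Gria1. It stood there at 1393 (1327 to 1462) and 1039.9 (975 to 1108) CPM, against 238 in hair cell-like nuclei and 230.3 in interdental-like nuclei, for folds of 5.86 and 4.51. In neuron-like nuclei, left out of the comparison, Kcnma1 was at 560 and 412 CPM. By this rule the pore subunit and its beta subunit Kcnmb2 had different leading classes, though both were found in hair cell-like and neuron-like nuclei.

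Kcnk13, a two-pore channel known from microglia (chromosome 12, 99924948 to 100028942, plus strand), was highest in macrophage-like nuclei at 95.6 (59.2 to 146) and 119.7 (80.7 to 171) CPM, from 21 and 30 UMIs. Its folds were 4.63 and 7.70. Kcnk3, an acid-sensitive two-pore channel (chromosome 5, 30745243 to 30783689, plus strand), was highest in the unnamed cluster 14, led by Rarres1, at 99.3 (79.1 to 123) and 104 (82.3 to 129.6) CPM, with folds of 3.21 and 3.84. Each level was nearly the same in both libraries, with overlapping intervals.

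Kcnip4, a calcium-binding partner of A-type channels (chromosome 5, 48546844 to 49682249, minus strand), was highest in roof epithelium-like nuclei at 389 (371 to 407) and 311 (294 to 329.6) CPM, with folds of 3.45 and 2.45. Its clusters differed: it stood at 482 and 593 CPM in cluster 20, at 318 and 152 in cluster 2, where 126 of 729 cOE UMIs came from 1 nucleus, and at 57.6 and 34.1 in cluster 26. Kcnip4 was higher still in neuron-like nuclei, left out of the comparison, at 996 and 429 CPM.

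Kcnj10, the inward rectifier that takes up potassium in glia and supporting cells (chromosome 1, 172168765 to 172201652, plus strand), was highest in supporting cell-like nuclei at 69.3 (53.3 to 88.7) and 53.6 (36.4 to 76.1) CPM, against 26.4 in Koelliker organ-like nuclei and 25.9 in cluster 8, for folds of 2.63 and 2.07. It stood at 26.4 and 23.4 CPM in Koelliker organ-like, 20.8 and 11.9 in lateral epithelium-like and 2.51 and 2.70 in mesenchymal-like nuclei. In supporting cell-like nuclei the library intervals overlapped.

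Over 14 settings, the main one included, Kcnk13 was called 14 times, Kcnh7, Kcnmb2 and Kcnma1 13 times each, Kcnip4 and Kcnk3 10 times each and Kcnj10 9 times. With the neuron-like cluster included, Kcnh7, Kcnmb2 and Kcnip4 had no leading class. The folds of Kcnma1 in cluster 7 were then 2.49 and 2.52. Several other members lay near 2-fold without passing it in both libraries. Kcns3, a silent subunit that modifies Kcnb channels, had folds of 1.88 and 1.999 in hair cell-like nuclei. Kcnh6, an ether-a-go-go-related subunit, had 1.71 and 1.98 in supporting cell-like nuclei. Kcnab1, a cytoplasmic beta subunit, had 2.24 and 1.68 in hair cell-like nuclei. Kcnip1, another A-type channel partner, had 1.55 and 2.74 in mesenchymal-like nuclei.

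Within hair cell-like nuclei, the inner hair cell-like sub-cluster held 70 and 21 nuclei and carried Slc17a8, Fgf8, Tbx2, Otof and Slc7a14. The outer hair cell-like sub-cluster held 155 and 93 nuclei and carried Slc26a5, Ocm, Ikzf2 and Strc. Kcnmb2 stood at 1267 (1169 to 1369.6) and 1329 (1161 to 1515) CPM in the inner and 640.3 (584 to 701) and 497 (435 to 565) in the outer sub-cluster. Kcnh7 stood at 1307 (1208 to 1412) and 1039.7 (892 to 1205) in the inner and 506 (456 to 560.1) and 549 (483 to 620.4) in the outer one. Both were higher in the inner sub-cluster in each library, with intervals that did not overlap.

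Kcnma1 had the same order, at 504 (444 to 571) and 378 (291 to 483) CPM in the inner and 217 (185 to 253) and 153 (119 to 193) in the outer sub-cluster. Kcnab1 stood at 1129 (1038 to 1227) and 862 (728 to 1014) and at 349 (307 to 394) and 293 (246 to 346). For Kcnh6 the inner sub-cluster was at 98.8 (73.1 to 131) and 124 (76.8 to 189.6) CPM and the outer at 5.43 (1.48 to 13.9) and 8.61 (2.35 to 22.04), from 4 and 4 UMIs. Each of these 3 was higher in the inner sub-cluster in both libraries. Kcnb2 followed too, at 478 and 668 against 27.1 and 51.6 CPM.

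Kcnn2, the small-conductance calcium-activated channel that acts with acetylcholine receptors at the efferent synapse, stood at 363 (312 to 420.1) and 248 (179 to 335) CPM in the inner and 513 (462 to 567) and 499 (437 to 568) in the outer sub-cluster. It was higher in the outer sub-cluster in each library.

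Kcna10, a voltage-gated channel of hair cells, stood at 50.4 and 53.2 CPM in the inner and 38.0 and 43.0 in the outer sub-cluster. Kcnh2, an ether-a-go-go-related channel, stood at 24.2 and 17.7 and at 20.3 and 28.0 CPM, from 12 and 3 UMIs in the inner and 15 and 13 in the outer sub-cluster. The intervals of the sub-clusters overlapped in each library for both genes.

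**Figure D3:**
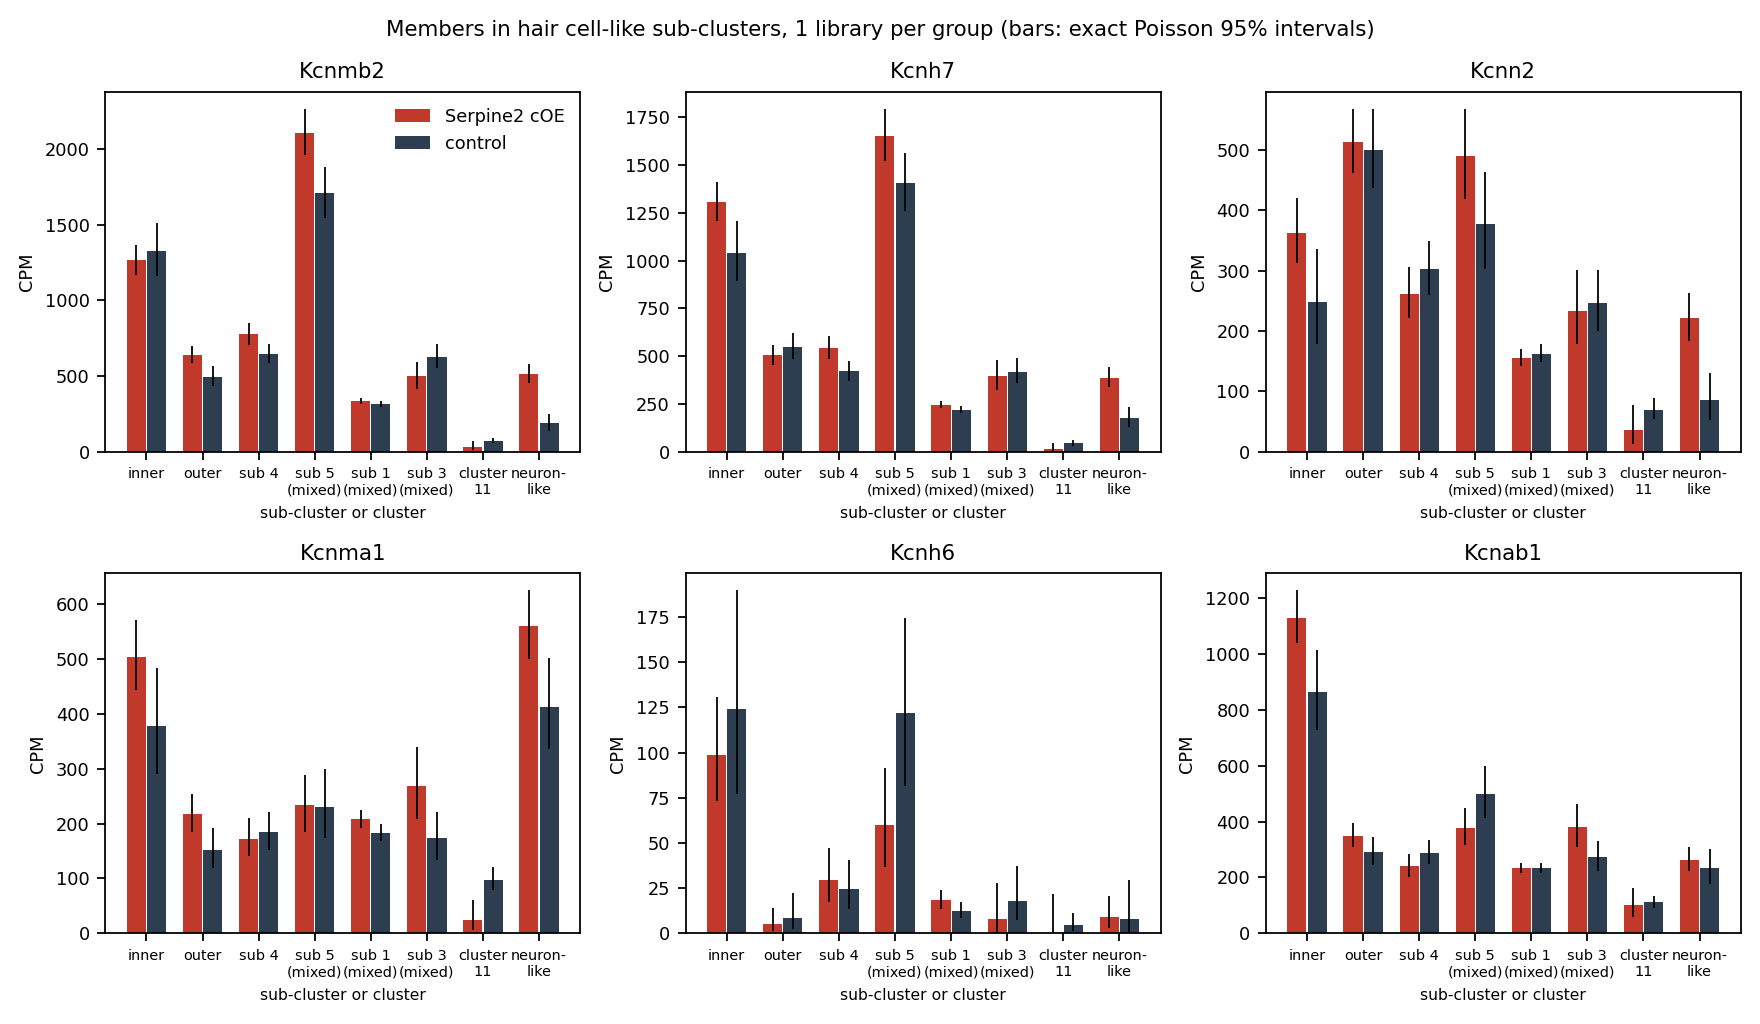
CPM of 6 members by hair cell-like sub-cluster and library, 1 library per group, with exact Poisson 95% intervals as bars. Kcnmb2 and Kcnh7 are highest in the mixed sub-cluster 5 and next in the inner one, and Kcnn2 is higher in the outer than in the inner sub-cluster.

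The plot of sub-clusters also shows sub-cluster 5, which carried all 14 hair cell markers and the neuronal markers Nefm, Nefl and Rbfox3 and is called mixed for that. Kcnmb2 stood there at 2109.5 (1960.4 to 2267) and 1711 (1549 to 1885) CPM and Kcnh7 at 1655 and 1405. In the mixed sub-cluster 1, which carried 5 mesenchymal markers, Kcnmb2 was at 336 and 316 CPM and Kcnh7 at 246 and 219.9.

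Neuron-like nuclei, with 57 and 33 in the 2 libraries, held many members, in a comparison added after the data were seen. With that cluster included, 16 of 68 members (23.5%) were highest there in both libraries, against 3.82% of all genes with 50 or more UMIs. Of the 68, 8 (11.8%) also stood 2-fold or more above the next class in both libraries, against 1.07% of all genes. Hair cell markers summed to 1199 and 408 CPM in these nuclei and neuron markers to 1532 and 1278. The hair-led Kcnmb2 stood at 515 and 188 CPM there and Kcnh7 at 388 and 176, and the part of the hair cell markers in those levels was not tested.

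Most of the 8 were voltage-gated subunits. Kcnh5, an ether-a-go-go channel, stood at 289 (246 to 337) and 93.9 (59.5 to 141) CPM, with folds of 14.0 and 6.04. Kcnc2 and Kcnc1, delayed rectifiers of fast-firing neurons, stood at 282 and 114 (folds 11.4 and 3.18) and 121 and 73.5 (folds 5.87 and 4.73). Both were highest in this cluster in each library. Kcnd2, an A-type pore subunit, stood at 257 (216 to 302) and 437 (358 to 528) CPM, with folds of 3.06 and 5.55. Kcna1, a low-threshold axonal channel, stood at 76.6 (55.5 to 103) and 36.7 (16.8 to 69.7) with folds of 2.14 and 2.36.

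Of other families were Kcnk9, an acid-sensitive two-pore channel, at 87.3 (64.6 to 115) and 49.0 (25.3 to 85.6) CPM with folds of 4.23 and 3.15, and Kcnt1, a sodium-activated channel, at 58.8 (40.5 to 82.6) and 32.7 (14.1 to 64.4) with folds of 2.85 and 2.01. Of these named genes, Kcnd2 had the higher value in the control library and the others the lower. The members highest there but under 2-fold in 1 or both libraries included Kcnip4 at 996 and 429 CPM, Kcnip1 at 146 and 69.4 and Kcnq3, a subunit of the neuronal M-current, at 422 and 347.

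In the plot of neuron-like folds Kcnh2 and Kcnab2, a cytoplasmic beta subunit, fell under 1 in 1 library each, where the next class was set to the level of 3 UMIs. Kcnh2 had 10 and 6 UMIs there and Kcnab2 14 and 3.

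Of the channels of potassium secretion, Kcnq1, the pore subunit that works with Kcne1 in strial marginal cells, was highest in interdental-like nuclei at 109 (86.6 to 134) and 161 (113 to 222) CPM. It stood at 100.5 and 89.5 in roof epithelium-like nuclei, and at 192 (129.5 to 274) and 537 (413 to 687) in their cluster 26, which had 49 and 34 nuclei. Kcnq1ot1 overlaps Kcnq1 on the opposite strand and was highest in the same class, at 564 (512 to 619) and 991 (866 to 1128) CPM. Whether counting used the strand is not given in the sources used here. How far reads of these 2 genes, or of Kcnmb4 and Kcnmb4os2, were kept apart was not checked. Kcne1 stood at 4.17 (1.35 to 9.72) and 3.97 (0.819 to 11.6) CPM in lateral epithelium-like nuclei, from 5 and 3 UMIs, and had 26 and 25 UMIs over all nuclei.

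Among inward rectifiers, Kcnj16, the partner of Kcnj10, stood at 38.5 (26.8 to 53.6) and 24.2 (13.2 to 40.6) CPM in supporting cell-like and 16.8 (13.1 to 21.2) and 17.8 (12.6 to 24.4) in Koelliker organ-like nuclei. It was higher in the first in both libraries, with overlapping intervals in the control. Kcnj13, an inward rectifier of transporting epithelia, was highest in hair cell-like nuclei at 100.4 and 82.2 CPM. Kcnj8, the pore of vascular ATP-sensitive channels, was highest in cluster 14 at 16.8 (9.16 to 28.1) and 10.5 (4.55 to 20.8) CPM, from 14 and 8 UMIs.

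Kcnq5, an M-type voltage-gated channel (chromosome 1, 21468627 to 22032166, minus strand), stood at 941 (876 to 1010.1) and 522 (455 to 597) CPM in cluster 19 and 119 (107 to 131) and 47.6 (37.9 to 59.1) in cluster 3, both Koelliker organ-like. Although it was left out of the clustering, it was first by fold among the genes of cluster 19. Lateral epithelium-like nuclei were at 268 (239.7 to 299) and 229 (196 to 266) CPM. Kcnh8 was highest in supporting cell-like nuclei at 952 (889.6 to 1018) and 839 (766 to 917) CPM, with 692 and 546 in hair cell-like nuclei.

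Kcnb2 stood at 2811 and 3596 CPM in supporting cell-like and 2035 and 1999 in mesenchymal-like nuclei. The supporting cell-like clusters were uneven, at 6353 and 7431 in cluster 4, 1248 and 1253 in cluster 22 and 1899 and 2790.4 in cluster 24. Its class level therefore moves with the mix of these clusters.

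Among two-pore channels, Kcnk2, a mechanically gated channel, stood at 527 (481 to 577) and 821 (756 to 889.7) CPM in cluster 17, led by Slc7a11 and Car3, and at 438 (419.8 to 456) and 466 (447 to 485) in mesenchymal-like nuclei, against 28.6 and 31.1 in supporting cell-like nuclei. Kcnk1, a widespread channel of low activity, stood at 53.9 and 51.9 CPM in supporting cell-like, 43.4 and 44.9 in Koelliker organ-like, 48.3 and 67.5 in lateral epithelium-like and 12.6 and 13.5 in mesenchymal-like nuclei. The epithelial classes named were above the mesenchymal-like one in both libraries. Kcnk5, a two-pore channel of epithelia, was highest in roof epithelium-like nuclei at 14.95 and 11.5 CPM.

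Some of the other sodium- and calcium-activated members were highest in unnamed clusters. Kcnt2, a sodium-activated channel, stood at 54.6 and 52.4 CPM in cluster 17 and 41.9 and 50.02 in cluster 14. Kcnn3, a small-conductance channel, stood at 15.1 and 20.6 CPM in cluster 7, where Kcna4, an A-type voltage-gated subunit, was at 20.1 and 32.5.

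Other genes came from a list of 27 drawn up around potassium handling, of which 24 had 50 or more UMIs. The list also holds genes known from hair cells, among them Cacna1d, Chrna9 and Chrna10. A leading class was found for 4 of these 24, hair cell-like in each case. Of all 18705 genes with 50 or more UMIs, 214 led in hair cell-like nuclei and 7.45% in any class. Because of how the list was chosen, its share is not a result about potassium handling. Cacna1d, the calcium channel of hair cell synapses, stood there at 2626 and 2558 CPM and Dpp6, a partner of A-type channels, at 155 and 146. Of the acetylcholine receptor subunits that act with Kcnn2, Chrna10 stood at 97.0 and 99.8 and Chrna9 at 60.8 and 60.3. These levels were close between the libraries. Over all nuclei 2 of 25 tested were past the fold in the higher direction (Gjb6 among them), against 5.47% of all genes, and 2 in the lower (Lrrc38 among them), against 6.67%, where higher and lower are 1.5-fold or more between the libraries.

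Between the libraries a member was counted in a class when its CPM differed by 1.5-fold or more either way, with 20 or more UMIs over both. Over all nuclei 11 of 68 members were higher in the Serpine2 cOE library, against 5.47% of all genes, and 2 were lower, against 6.67% of all genes. Ratios are the log2 of the Serpine2 cOE over the control CPM, each followed by its interval. Where another setting took a named ratio under 1.5-fold or moved it by more than 1.5 times, its value there or its range over the settings tried is given. The median log2 ratio was 0.01 for members and 0.00 for all genes. Such sums move with the mix of classes, and more nuclei of a type and more RNA per nucleus cannot be told apart in them.

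The 5 largest of the 11 ratios belonged to members highest in neuron-like nuclei, which were 57 and 33 in the 2 libraries. Kcnk9 had 64 UMIs against 16 (log2 1.72, 0.91 to 2.61), with 49 and 12 of them in neuron-like nuclei. Kcna1 had 82 UMIs against 23 (1.55, 0.87 to 2.29). Kcnc1 had 115 UMIs against 34 (1.48, 0.92 to 2.08) and Kcnh5 had 237 UMIs against 76 (1.36, 0.98 to 1.75). Without the neuron-like cluster the Kcnh5 log2 ratio was 0.23, and 10 members were past the fold, 7 higher and 3 lower. Kcnk9, Kcna1 and Kcnc1 stayed past 1.5-fold there. Their lowest log2 ratios over the settings tried, that one included, were 1.64, 1.21 and 1.29. Few Kcnk9 UMIs lay outside that cluster. Others higher over all nuclei were Kcnq5, Kcnj10, Kcnj16, Kcng3, Kcnk10 and Kcnj15. Kcnk7, a two-pore subunit not known to conduct by itself, was lower at 2.59 against 5.33 CPM (-1.04, -1.44 to -0.64). Kcnk13 was lower at 1.68 against 2.66 CPM (-0.67, -1.20 to -0.14), beside 122 and 159 macrophage-like nuclei.

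In hair cell-like nuclei 2 of 42 members were higher in the Serpine2 cOE library, against 5.99% of all genes, and 5 were lower, against 7.55% of all genes. The median log2 ratio was -0.10 for members and 0.00 for all genes. Kcnn2, Kcnma1 and Kcna10, known hair cell channels, were not among them: the log2 ratio was 0.16 (0.05 to 0.28) for Kcnn2, 0.33 (0.21 to 0.46) for Kcnma1 and 0.03 (-0.37 to 0.44) for Kcna10. Kcnmb2 was at 0.33 (0.26 to 0.41) and Kcnh7 at 0.43 (0.34 to 0.52), both under 1.5-fold. The class was not made up alike: inner hair cell-like nuclei were 70 and 21 of 477 and 369, and the 14 hair cell markers summed to 6703 and 5433 CPM. Kcnmb2 was at 1267 against 1329 CPM in the inner and 640.3 against 497 in the outer sub-cluster, and Kcnh7 at 1307 against 1039.7 and 506 against 549, so for each gene the direction of the class held in 1 of these sub-clusters and not in the other. The part of this mix in the class ratios was not tested.

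Most of these 7 members moved with the mixed sub-clusters. Kcnq5 stood at 58.9 against 22.5 CPM (log2 1.39, 1.06 to 1.72), but at 17.7 against 16.04 without the mixed sub-clusters (0.14, -0.71 to 1.03). With nuclei thinned to 1000 UMIs its ratio was 2.04. Kcnq1 stood at 30.1 against 49.7 (-0.72, -1.02 to -0.43), with 35 of 234 control UMIs in 1 nucleus. Its ratio was -0.55 without the top nucleus of each library. It was at 22.1 against 20.9 without the mixed sub-clusters, and its ratio turned to 0.13 with nuclei thinned to 1000 UMIs. Kcnd3, an A-type pore subunit, was at 11.4 against 18.7 (-0.71, -1.21 to -0.22) and Kcnc2 at 7.81 against 12.1 (-0.63, -1.25 to -0.03), and both turned direction without the mixed sub-clusters, to log2 ratios of 0.05 and 0.46. In thinned nuclei the ratio of each was -0.37, and that of Kcnc2 was also under 1.5-fold with at least 1000 genes (-0.50), separate clustering (-0.51) and equal weight of nuclei (-0.40). In mixed nuclei the 6 roof epithelium markers summed to 1105 and 917 CPM and the 13 mesenchymal markers to 972 and 1144. In the other hair cell-like nuclei the roof markers summed to 144 and 84.2 and the mesenchymal markers to 533 and 630.4.

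Kcnk2 kept its direction: it stood at 53.4 (47.3 to 59.99) against 89.2 (80.9 to 98.1) CPM (log2 -0.74, -0.96 to -0.52) and, without mixed sub-clusters, at 17.2 against 42.5 (-1.31, -1.998 to -0.64), with 11 of 53 control UMIs in 1 nucleus. With doublets kept the ratio was -0.43, under 1.5-fold. Kcnd2 stood at 11.6 against 18.7 (-0.68, -1.18 to -0.20) and without mixed sub-clusters at 12.7 against 24.1 (-0.92, -1.77 to -0.09), but its ratio was 0.37 in nuclei thinned to 1000 UMIs. It was also under 1.5-fold with doublets kept (-0.52), separate clustering (-0.26) and equal weight (-0.38). Both were thus lower in the Serpine2 cOE library in all and in unmixed hair cell-like nuclei, Kcnd2 not at equal depth. Unmixed nuclei also held sub-cluster 4, named neither inner nor outer, with 60 and 61 nuclei. Kcnd2 was first by fold there against the other hair cell-like nuclei. The part of this mix in the Kcnd2 ratio was not tested. The last of the 7 was Kcnk5.

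In supporting cell-like nuclei, 163 and 95 in number, 3 of 20 members were higher, against 10.5% of all genes, and 3 were lower, against 9.32% of all genes. Kcnab1 stood at 92.4 (73.7 to 114) against 57.1 (39.3 to 80.1) CPM (log2 0.70, 0.10 to 1.32), and its ratio fell just under 1.5-fold with at least 1000 genes (0.58) and with each library clustered on its own (0.52). Kcnd2 had 6 UMIs against 15 (-1.97, -3.63 to -0.53), 9 of 15 of the control in 1 nucleus, and Kcnh7 had 8 UMIs against 15 (-1.56, -3.00 to -0.23). Over the settings tried the ratio of Kcnd2 went from -2.36 to -0.59, nearest to 0 with doublets kept, and was -1.24 without the top nucleus of each library. That of Kcnh7 went from -1.77 to -0.86. The leading member Kcnj10 had a log2 ratio of 0.37 (-0.27 to 1.04), an interval that holds no difference and also more than 1.5-fold. With 50 or more UMIs required, 1 member was past the fold.

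In Koelliker organ-like nuclei 5 of 33 members were higher, against 8.49% of all genes, and 2 were lower, against 7.48% of all genes. Kcnq5 stood at 279 (264 to 296) against 139 (124 to 156) CPM (log2 1.00, 0.82 to 1.19), and was higher in cluster 3 (1.32, 0.97 to 1.68) and in cluster 19 (0.85, 0.63 to 1.07). With each library clustered on its own, the class had a log2 ratio of -0.20, so the direction for the class turned with how it was drawn. Kcnd2 stood at 11.8 against 3.74 CPM (1.65, 0.56 to 2.94), and its ratio went from 1.13 to 2.52 over the settings. Kcnk3 had 21 UMIs against 1 (3.43, 0.79 to 8.80), with a ratio from 2.08 to 3.45 and no value without the top nucleus of each library or in thinned nuclei. Kcnma1 was lower at 25.9 against 41.7 (-0.68, -1.10 to -0.26), but under 1.5-fold at Leiden resolution 2 (-0.33) and in thinned nuclei (-0.46).

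**Figure D4:**
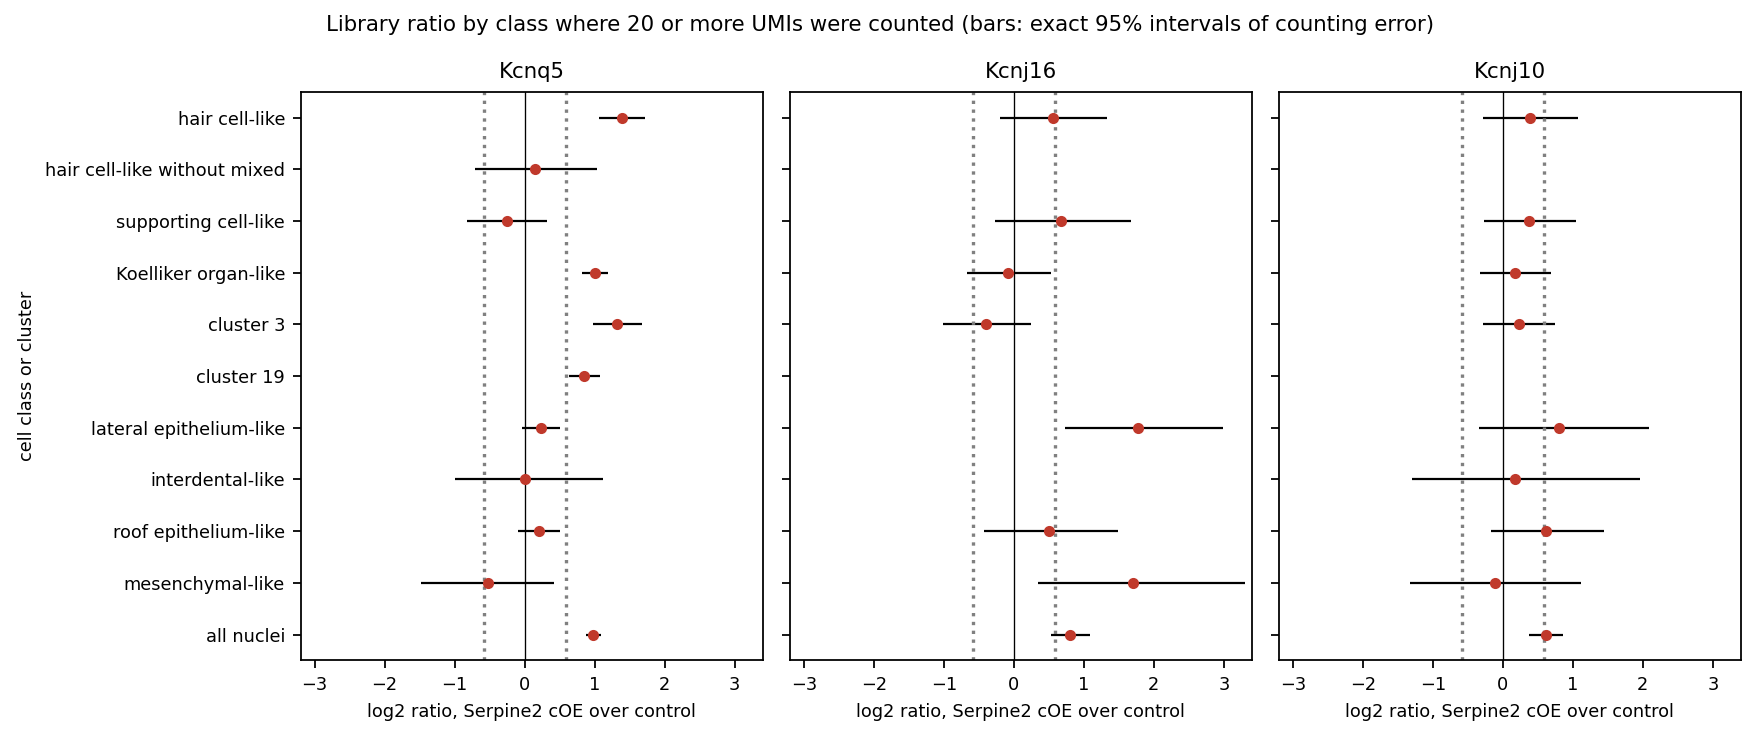
Log2 ratio of CPM, Serpine2 cOE over control, for Kcnq5, Kcnj16 and Kcnj10 by cell class or cluster, with exact 95% intervals of counting error and dotted lines at 1.5-fold either way. Kcnq5 passes 1.5-fold in Koelliker organ-like nuclei at 1.00 (0.82 to 1.19) and Kcnj16 in lateral epithelium-like nuclei at 1.78 (0.74 to 2.99).

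The plot of library ratios sets Kcnq5 beside the paired rectifiers Kcnj16 and Kcnj10. In lateral epithelium-like nuclei, 271 and 173 in number, Kcnj16 stood at 40.8 (30.2 to 54.0) against 11.9 (5.45 to 22.6) CPM (log2 1.78, 0.74 to 2.99), from 1.63 to 2.34 over the settings tried. In mesenchymal-like nuclei it had 21 UMIs against 6 (1.70, 0.35 to 3.30), from 1.31 to 1.97. In Koelliker organ-like nuclei its log2 ratio was -0.08 (-0.67 to 0.53) and in supporting cell-like nuclei 0.67 (-0.26 to 1.68). Whether the classes differ in this ratio was not tested. Kcnj10 was at 0.81 (-0.34 to 2.09) in lateral epithelium-like and 0.62 (-0.17 to 1.45) in roof epithelium-like nuclei, both with intervals that hold 0.

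In lateral epithelium-like nuclei 4 of 21 members were higher, against 10.7% of all genes, and 4 were lower, against 8.4% of all genes. Besides Kcnj16, Kcnn2 had 22 UMIs against 4 (log2 1.79, 0.23 to 3.79), from 1.07 to 1.92 over the settings. Kcnj13 stood at 26.7 against 50.3 CPM (-0.92, -1.64 to -0.20), from -3.12 to -0.75, farthest from 0 in thinned nuclei.

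In interdental-like nuclei, 294 and 78 in number, 1 of 14 members was higher, against 18.7% of all genes, and 5 were lower, against 11.3% of all genes. Kcnb2 stood at 234 (201 to 271) against 656 (556 to 769.6) CPM (log2 -1.49, -1.81 to -1.17) and Kcnq1ot1 at 564 (512 to 619) against 991 (866 to 1128) (-0.81, -1.05 to -0.58). Kcnh8 had 13 UMIs against 18 (-2.22, -3.37 to -1.11) and Kcnk1 had 23 UMIs against 18 (-1.40, -2.35 to -0.42). In thinned nuclei the ratio of Kcnh8 was -0.91 and that of Kcnk1 was -0.32, under 1.5-fold. The hair cell markers summed to 345 and 517 CPM here, with 0 and 4 of 14 markers at 0, and their part in these ratios was not tested.

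In roof epithelium-like nuclei 3 of 37 members were higher, against 5.79% of all genes, and 10 were lower, against 12.0% of all genes. With each library clustered on its own, 2 of 32 members were higher and 20 lower, and 32.7% of all genes were past the fold either way. In thinned nuclei 0 of 16 were higher and 3 lower. The median log2 ratio was -0.24 for members and -0.01 for all genes. Kcnh8 stood at 173 (162 to 186) against 107 (96.4 to 118) CPM (log2 0.70, 0.53 to 0.88), but its ratio turned to -0.87 with each library clustered on its own. It was under 1.5-fold with doublets kept (0.29), equal weight (0.54), thinned nuclei (0.34) and in cluster 20 alone (0.42). Kcng3, a silent subunit that modifies Kcnb channels, had 21 UMIs against 4 (2.04, 0.48 to 4.05).

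The lower members included Kcnab1 at 57.5 (50.9 to 64.7) against 103 (92.9 to 114) CPM (log2 -0.84, -1.07 to -0.61) and Kcnd3 with 40 UMIs against 71 (-1.18, -1.77 to -0.60). Kcnmb2 had 18 UMIs against 34 (-1.27, -2.18 to -0.40) and Kcnip1 had 19 UMIs against 30 (-1.01, -1.92 to -0.13). Kcnip2, another A-type channel partner, had 8 UMIs against 18 (-1.52, -2.93 to -0.24), which turned to 0.26 in cluster 20 alone and was -0.68 with doublets kept. With at least 200 genes and at most 10% mitochondrial UMIs the ratio of Kcnab1 was -0.49 and that of Kcnip1 -0.57, both under 1.5-fold. With each library clustered on its own Kcnd3 was at -2.41 and Kcnip1 at -1.87, and with doublets kept Kcnd3 was at -3.00. The 13 mesenchymal markers summed to 769 and 1107 CPM in the class and to 478 and 363 in cluster 20, and their part in these ratios was not tested.

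In mesenchymal-like nuclei 2 of 43 members were higher, against 5.4% of all genes, and 4 were lower, against 6.06% of all genes. Kcnt1 had 13 UMIs against 27 (log2 -1.16, -2.24 to -0.15). Its ratio was under 1.5-fold with doublets kept (-0.48), with at least 200 genes (-0.57), at Leiden resolution 2 (-0.42), with Kcn genes in the clustering (-0.47) and with each library clustered on its own (-0.23). Kcnk7 had 19 UMIs against 39 (-1.14, -2.02 to -0.32), and its ratio stayed past 1.5-fold, from -1.30 to -0.72. Kcnk2 and Kcnb2 had log2 ratios of -0.09 (-0.17 to -0.005) and 0.03 (-0.01 to 0.07). In macrophage-like nuclei 0 of 5 members were higher, against 14.0% of all genes, and 1 was lower, against 13.7% of all genes. That member was Kcnip4, with 7 UMIs against 15.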

How the data were processed

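Per the file headers and labels, the deposited values are counts, whole numbers of UMIs per gene and barcode, that the authors made with Cell Ranger 8.0.1 and STAR (version not given in the sources used here) from 10x 3′ libraries. The labels give the build as GRCm39 in one place and mm10 in another. Gene positions were taken from GENCODE M39 by gene ID, which held 68 of 68 members and 33185 of 33696 IDs.

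Nuclei with at least 500 genes and at most 5% mitochondrial UMIs were kept, 10817 and 8953, with medians of 2512 and 2297 UMIs. Scrublet's automatic limit marked 0 nuclei in either library, so the highest scores were removed at 0.8% per 1000 barcodes (1040 and 703 nuclei). Both libraries were clustered together with scanpy 1.11.5 and leidenalg 0.10.2 (3000 variable genes without Kcn genes, 50 components, 15 neighbours, resolution 1, and 2000 genes and resolution 0.5 within hair cells). Clusters were named from at least 3 markers found in 10% of nuclei at 2-fold. Calculations used Python 3.11.15, numpy 2.4.6, scipy 1.17.1 and pandas 2.3.3, and TMM factors edgeR 4.0.16 in R 4.3.3. Scripts were tested on simulated data. Free RNA in droplets was not corrected for.

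UMIs were summed per class and library, and ratios were read without a test. The members, lists and marker genes were chosen with earlier results of these data known. Genes named are those with a leading class, up to 5 per class and direction past the fold whose interval leaves out a ratio of 1, 17 genes known in the cochlea, and 3 either side of the UMI limit; a few others are named to complete a count or family, and some genes are not reported here. Alternatives covered filters, doublets, clustering, weights, depth, scaling, folds and UMI minimums.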

Additional observations from a re-analysis of the deposited data

How the results depend on the processing

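No paired analysis was possible because each group is 1 library. The count of members with a leading class was 7. It was 12 with each library clustered on its own, 15 at 1.5-fold, 4 at 4-fold, 13 without mixed hair cells and clusters 8, 11 and 25, and 12 with the neuron-like cluster, the last 2 settings added after the data were seen. With the neuron-like cluster Kcnh7, Kcnmb2 and Kcnip4 were no longer called, and 8 of the 12 led in neuron-like nuclei. In hair cell-like nuclei the count past the fold was 7. It was 13 with equal weight of nuclei, 3 in thinned nuclei, 1 at 2-fold, 14 with at least 10 UMIs and 4 without mixed sub-clusters. In supporting cell-like nuclei it was 6, then 1 thinned, 2 at 2-fold, 11 with at least 10 UMIs and 1 with at least 50. In the other named classes together it was 41, then 22 thinned, 18 at 2-fold, 66 with at least 10 UMIs and 18 with at least 50. Over all nuclei it was 13, and 8 at 2-fold. By class, the roof epithelium-like count of 13 was 22 with each library clustered on its own, 3 thinned and 8 in cluster 20 alone. The Koelliker organ-like count of 7 was 11 with equal weight, the lateral epithelium-like count of 8 was 4 thinned, the mesenchymal-like count of 6 was 10 at Leiden resolution 2 and 10 with Kcn genes in the clustering, and the macrophage-like count of 1 reached 9 with at least 200 genes. Of 38 single ratios, 22 stayed past 1.5-fold and 31 kept their direction in every setting run that gave them a value. Over 451 ratios in other settings, 28 fell under 1.5-fold in the same direction and 8 turned. Both tallies include the 2-fold, 10 UMI and 50 UMI settings, which leave each single ratio unchanged and so are no check on it. The interdental-like nuclei had no value with doublets kept or with each library clustered on its own, and values over all nuclei were not recomputed under the other nucleus filters, clusterings, weights or thinned depth. The reversed log2 ratios were -0.20 for Kcnq5 in Koelliker organ-like and -0.87 for Kcnh8 in roof epithelium-like nuclei (libraries clustered separately), 0.13 for Kcnq1 and 0.37 for Kcnd2 in hair cell-like nuclei (thinned), 0.086 for Kcnq1, 0.050 for Kcnd3 and 0.46 for Kcnc2 there (without mixed sub-clusters), and 0.26 for Kcnip2 in cluster 20. The smaller counts at 2-fold, 4-fold and 50 UMIs follow from the stricter rule, and the larger ones at 1.5-fold and 10 UMIs from the looser rule. With each library clustered on its own, unnamed clusters were pooled into 1 class for the leading class count, so the classes compared were not the same. The cause of the other changes was not tested. Depth limits most members: the median member had 325 UMIs in all, and a class of few nuclei cannot show a 1.5-fold difference in a low gene.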
